A study of Mus musculus with 8 samples.

Results

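DNA replication and mitosis genes are 48 genes whose products copy the genome in S phase or divide the chromosomes in G2 and M. They were chosen by name: 15 S phase genes, 30 G2 and M genes and 3 genes of the tubulin system (Stmn1, Tubb5 and Tuba1b) that cells use in all phases. All 48 were in the bulk table of 55413 genes and in the single-cell table of 15083 genes. In bulk libraries 7 of the 29 tested G2 and M genes were lower with dopamine in every library than in every library without it. Of all tested genes 6.57% were, and none of the helicase subunits Mcm2 to Mcm7 was. Of the 47 tested genes of the whole set, 11 were. After median-of-ratios scaling, 22 of these 47 were, beside 15.3% of all genes. In single cells, 73 of 9076 cells held at least 5 UMIs of the 25 least often detected G2 and M genes, a limit set after seeing the data. Picked by these UMIs, they held 28.7% of them, and they were deep, with a median of 10899 UMIs.

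The cells were lung group 2 innate lymphoid cells (ILC2s), tissue lymphocytes without antigen receptors, sorted from wild type C57BL/6 mice. For 3 days the mice had IL-33, an alarmin cytokine, through the nose together with dopamine, a catecholamine, or with PBS vehicle. Bulk Smart-Seq2 libraries, each from 2000 cells of female mice, gave 3 biological replicates of IL-33 plus PBS and 3 of IL-33 plus dopamine. A 10x pool from male mice carried 8 antibody hashtags: 1 and 2 are listed as PBS, with no IL-33 in the name, 3, 4 and 5 as IL-33, and 6, 7 and 8 as IL-33_DA, called dopamine here. All groups are wild type. The labels do not say that a hashtag was 1 mouse, so its p-values measure the spread between hashtags, which may be technical.

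The pool was a single gene expression library of 9076 cells, with 311 to 1516 cells per hashtag, 1397576 to 9268932 UMIs (unique molecular identifiers) per hashtag and a median of 4201 to 5692 UMIs per cell. Bulk values were TPM (transcripts per 1000000), with no read counts, so read depth is not known; PBS libraries held 9822 to 11384 genes at 1 TPM or more, and dopamine libraries 11502 to 11745. The 9 ILC2 markers (among them Gata3 and Il1rl1) were above 0 in every group and summed to 2292 to 3325 TPM with PBS and to 2408 to 3574 TPM with dopamine. Of the other markers, the 6 of NK cells and ILC1 summed to 7.42 to 43.8 TPM with PBS and 96.6 to 177 TPM with dopamine, and the 4 of ILC3 to 10.9 to 62.2 and 85 to 173 TPM. The 9 T cell markers summed to 1150 to 1662 and 1687 to 2160 TPM (Cd8a was at 0 with PBS), the 4 of B cells to 26.8 to 52.9 and 45.1 to 72.5 TPM, and the 8 of myeloid cells to 29.2 to 235 and 32 to 445 TPM (C1qa and S100a8 at 0 in all libraries). The 3 fibroblast markers were at 0 throughout, and in single cells NK cell and ILC1 markers summed to 160 to 172 CPM (counts per 1000000 UMIs) with IL-33 and 169 to 191 with dopamine. The part of these cells in the results was not tested. In bulk RNA, fewer cycling cells and less of these RNAs per cell cannot be told apart.

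Before replication, the MCM helicase is loaded on origins of DNA, and PCNA, DNA ligase and the enzymes of nucleotide supply then work at the fork. After replication, cyclin B with the kinase CDK1 starts mitosis, kinetochore and spindle proteins attach and move the chromosomes, and the anaphase-promoting complex ends mitosis by destroying the cyclins. E2F factors are known to drive many S phase genes. Many G2 and M genes carry a CCAAT box, bound by NF-Y, and a cell cycle homology region (CHR), through which the MuvB complexes hold them down in resting cells and switch them on late in the cycle. IL-33 is known to make lung ILC2s divide.

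RefSeq promoters (GRCm38.p6) were found for 40 of the 48 genes, each covering 250 bases before to 50 bases after a start site, and motifs were searched on both strands. The CHR word TTTGAA was in 20 of 25 G2 and M genes (80%), in 2 of 13 S phase genes (15.4%) and in 20.2% of all 27025 genes with a promoter. The CCAAT word was in 23 of 25 G2 and M genes (92%), in 69.2% of the S phase genes and in 41.1% of all genes, and both words together in 80%, 15.4% and 7.97%. An E2F word (any of TTCCCGC, then TTCGCGC, then TTGCCGC, then TTGGCGC) was in 7 of 13 S phase genes (53.8%), in 4 of 25 G2 and M genes (16%) and in 10.9% of all genes. The GC box GGGCGG was in 84.6% of the S phase genes, 84% of the G2 and M genes and 38.2% of all genes. The E2F words can overlap each other on opposite strands, and ATTGG, the CCAAT word on the other strand, can share letters with TTGGCGC. A match is a description of letters and not a bound site.

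Of the 25 G2 and M genes with a promoter, 5 had no CHR word, among them Birc5, Ccnb1 and Cenpe. The 4 G2 and M promoters shown all have one. They are of genes with values given below, and the other is of Mcm6, a helicase subunit with other values. Each runs from 200 bases before to 10 bases after the start site, 5′ to 3′ on the strand of the gene. Capitals mark CCAAT and CHR words on either strand in the first 4 genes and E2F words in Mcm6. Ccnb2 (cyclin B2) lies at chr9:70421545-70421754 on the minus strand, Cenpf (a kinetochore protein) at chr1:189688077-189688286 on the minus strand, Mki67 (the Ki-67 coat protein of mitotic chromosomes) at chr7:135716370-135716579 on the minus strand, Ube2c (the E2 enzyme of the anaphase-promoting complex) at chr2:164769729-164769938 on the plus strand and Mcm6 at chr1:128359696-128359905 on the minus strand.
Ccnb2: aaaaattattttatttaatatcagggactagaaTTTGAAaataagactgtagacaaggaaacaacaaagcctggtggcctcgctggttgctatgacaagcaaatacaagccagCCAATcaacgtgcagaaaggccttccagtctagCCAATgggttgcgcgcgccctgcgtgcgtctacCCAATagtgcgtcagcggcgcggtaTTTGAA
Cenpf: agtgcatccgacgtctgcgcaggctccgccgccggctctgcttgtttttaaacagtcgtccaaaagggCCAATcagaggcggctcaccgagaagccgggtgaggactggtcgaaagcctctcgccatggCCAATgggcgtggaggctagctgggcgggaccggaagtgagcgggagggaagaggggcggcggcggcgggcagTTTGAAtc
Mki67: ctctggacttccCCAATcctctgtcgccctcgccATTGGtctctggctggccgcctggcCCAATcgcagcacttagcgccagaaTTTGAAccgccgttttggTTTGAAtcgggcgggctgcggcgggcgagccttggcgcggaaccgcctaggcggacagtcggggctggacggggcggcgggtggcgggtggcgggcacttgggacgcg
Ube2c: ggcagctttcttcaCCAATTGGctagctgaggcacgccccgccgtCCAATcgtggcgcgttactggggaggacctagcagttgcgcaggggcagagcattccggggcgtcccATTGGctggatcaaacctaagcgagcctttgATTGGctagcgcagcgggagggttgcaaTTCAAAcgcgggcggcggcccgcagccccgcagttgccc
Mcm6: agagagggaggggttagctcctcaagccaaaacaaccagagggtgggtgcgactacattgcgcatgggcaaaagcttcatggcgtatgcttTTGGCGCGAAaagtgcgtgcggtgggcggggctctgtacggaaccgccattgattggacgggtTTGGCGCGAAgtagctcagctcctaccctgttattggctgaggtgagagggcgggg
In this window Ccnb2 had 3 CCAAT and 2 CHR words, Cenpf 2 and 1, Mki67 3 and 2, and Ube2c 5 and 1, of which a pair of CCAAT words on opposite strands overlap. Mki67 is also among the 4 G2 and M genes with an E2F word, left in lower case here. Mcm6 had 4 E2F words, which overlap in pairs, and 2 CCAAT words left in lower case.

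In the bulk libraries no gene of the set passed an adjusted p of 0.05 (limma, Benjamini-Hochberg over 11222 genes, of which 4, or 0.0356%, passed). At an unadjusted p under 0.05, 15 of the 47 tested genes were lower with dopamine and 1 was higher, against 4.62% and 19.5% of all tested genes. Bub1 alone was too low to be tested. Changes are log2 differences of TPM + 1, which understates the change of low genes, dopamine minus PBS, with the standard error. A relative change has the median over the 11222 genes taken off, which was 0.49 in the deposited TPM and 0.05 after median-of-ratios scaling. A total of 40 of the 47 lay below that median. The median relative change was -0.56 for the S phase genes, -1.70 for the G2 and M genes and -1.12 for the 3 tubulin genes. It was -1.31 for the 20 tested G2 and M genes with a CHR word and -2.07 for the 4 tested without one. In single cells these medians with dopamine were -0.3 (14 genes) and -1.18 (2 genes). A link between the CHR word and the change was not tested.

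Groups without any overlap were more frequent on the lower side: 11 of 47 genes were lower in every dopamine library than in every PBS library, beside 6.57% of all tested genes, and 1 was higher, beside 23.5%. After median-of-ratios scaling these counts were 22 lower, beside 15.3%, and 1 higher, beside 13.4%. By role, all 11 tested genes of cyclins, kinases and the anaphase-promoting complex lay below the median of all genes, with a median of -2.13, and 5 of them did not overlap. The 10 fork genes had a median of -0.50, with 6 below and 4 above, and none was free of overlap on the lower side.

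Cyclins come first. Ccnb2 was at 89.2, 69.4 and 35.8 TPM in PBS libraries 1 to 3 and at 11.7, 21.8 and 10.6 TPM in dopamine libraries 1 to 3. Every dopamine library lay under every PBS library, with a change of -2.04 ± 0.44 (-2.53 relative, adjusted p = 0.0832 by limma). Ccnb1, cyclin B1, had 21.9, 7.31 and 6.45 TPM with PBS and 1.38, 1.58 and 3.02 TPM with dopamine, again without overlap (-1.95 ± 0.59, limma adjusted p = 0.113). Ccna2, cyclin A2, overlapped: 29.3, 23.5 and 10.1 TPM against 18.3, 0.43 and 8.98 TPM. Cdk1, their kinase, did so through a single high dopamine library, with 36.1, 45.4 and 26.1 TPM against 12.3, 5.02 and 40.7 TPM.

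The genes that start or end mitosis followed. Cdca3, which helps remove the CDK1 inhibitor WEE1, had 75.6, 46.5 and 39.2 TPM with PBS and 10.7, 16 and 12.1 TPM with dopamine. It had the smallest p of the set (-1.94 ± 0.38, -2.43 relative, limma adjusted p = 0.0832) and its groups lay far apart. Ube2c had 96.7, 114 and 74.5 TPM with PBS and 47.9, 25.1 and 17.8 TPM with dopamine (-1.71 ± 0.39). Cdc20, the activator of the anaphase-promoting complex, had 35.3, 23.4 and 20 TPM against 11.6, 1.56 and 9.73 TPM (-1.91 ± 0.62). For both, all dopamine libraries were under all PBS libraries. Plk1, a mitotic kinase, was low, at 8.16, 5.55 and 3.14 TPM against 3.73, 0 and 0.8 TPM, and overlapped.

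At the kinetochore and the inner centromere, Birc5, which encodes survivin of the chromosomal passenger complex, had 77.3, 107 and 56.7 TPM with PBS and 38, 14.8 and 14 TPM with dopamine, with no overlap (-1.91 ± 0.44). Spc25, a subunit of the NDC80 complex that grips microtubules, had 7.22, 11.5 and 8.75 TPM against 3.93, 1.37 and 1.47 TPM, also without overlap (-1.70 ± 0.53). Cenpa, the histone H3 variant of centromeres, lay the other way, with 119, 107 and 64.7 TPM against 157, 161 and 86 TPM. Its groups overlapped and its relative change was -0.03. Cenpe and Cenpf, both large kinetochore proteins, stood at low levels, Cenpf at 1.54, 1.72 and 0.89 TPM against 2.94, 0 and 1.12 TPM.

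Genes of the tubulin system were abundant. Stmn1 (stathmin), which takes microtubules apart, had 249, 327 and 147 TPM with PBS and 117, 53.2 and 71.4 TPM with dopamine, without overlap (-1.57 ± 0.36, limma adjusted p = 0.0832). Tuba1b, an alpha tubulin, had 572, 608 and 337 TPM against 328, 305 and 319 TPM; the lowest PBS library was just above the highest dopamine library. Tubb5, a beta tubulin, overlapped at 454, 352 and 263 TPM against 279, 234 and 264 TPM.

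The S phase genes split. Of nucleotide supply, Tyms (thymidylate synthase) had 100.1, 68.9 and 47.7 TPM with PBS and 16.1, 38.2 and 35.1 TPM with dopamine, without overlap (-1.28 ± 0.42). Tk1 (thymidine kinase) had 47.2, 59.4 and 28.6 TPM against 25.3, 17.3 and 27.2 TPM, a narrow gap (-0.89 ± 0.38). Rrm1, the large subunit of ribonucleotide reductase, lay the other way, at 35.5, 4.88 and 7.99 TPM against 30.8, 12.5 and 29.9 TPM, with overlap.

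For most helicase subunits PBS library 1 stood apart. Mcm2 had 55.7, 6.5 and 11.7 TPM with PBS and 26.1, 28.8 and 29.7 TPM with dopamine. Mcm4 had 41.1, 3.54 and 5.27 TPM against 25.2, 15 and 26.4 TPM, and Mcm6 126, 18.1 and 18.6 TPM against 74.1, 51.5 and 74.7 TPM. In each, PBS library 1 was above all dopamine libraries and PBS libraries 2 and 3 were below them. Mcm3 had 76.4, 16.7 and 29.9 TPM against 89.2, 36.9 and 36.8 TPM, Mcm5 94.1, 28.9 and 29.1 against 43.7, 34.2 and 40.5 TPM, and Mcm7 68.2, 19.2 and 24.5 against 36.4, 28.9 and 35.1 TPM. In Mcm5 and Mcm7, too, PBS library 1 was above all dopamine libraries and PBS libraries 2 and 3 were below them. Pcna, the sliding clamp, showed no such library: 79.3, 88.7 and 79.9 TPM against 108, 67.6 and 67.4 TPM, overlapping (-0.06 ± 0.28).

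Without PBS library 1, 8 of 46 tested genes passed limma's adjusted p (14.3% of all genes did). Mcm2, Mcm4, Mcm6 and Smc4 were higher with dopamine, and Birc5, Ccnb2, Cdca3 and Ube2c were lower. Of all 10733 genes in that fit, 1429 passed as higher and 107 as lower. Without dopamine library 2, the median of the G2 and M genes was -1.03 in place of -1.70. Array weights, which count deviant libraries less, gave 11 of 47 genes, 4 higher and 7 lower, beside 25% of all genes. Of all 11222 genes, 2439 were higher and 361 lower with these weights.

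Of 5 chromosome structure genes, 4 lay below the median of all genes, with relative changes of -0.92 for Smc2, -0.73 for Hmgb2, -0.72 for Top2a and -0.32 for Mki67. Smc4, a condensin subunit, had 39.8, 30.5 and 33.2 TPM with PBS and 68.2, 72.2 and 63.3 TPM with dopamine, and was the 1 gene of the set that was higher without overlap (0.96 ± 0.28, 0.47 relative). Its partner Smc2 overlapped at 25.3, 20.6 and 3.97 TPM against 16.6, 3.84 and 12.6 TPM. Top2a, the topoisomerase that untangles sister chromatids, had 26.3, 11.2 and 4.78 TPM against 14.4, 8.8 and 6.9 TPM. Mki67 had 8.48, 2.89 and 2.09 TPM against 6.29, 2.69 and 5.13 TPM. For both of these usual markers of proliferation the groups overlapped, and Mki67 had a change of 0.18 ± 0.60, -0.32 relative.

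**Figure D1:**
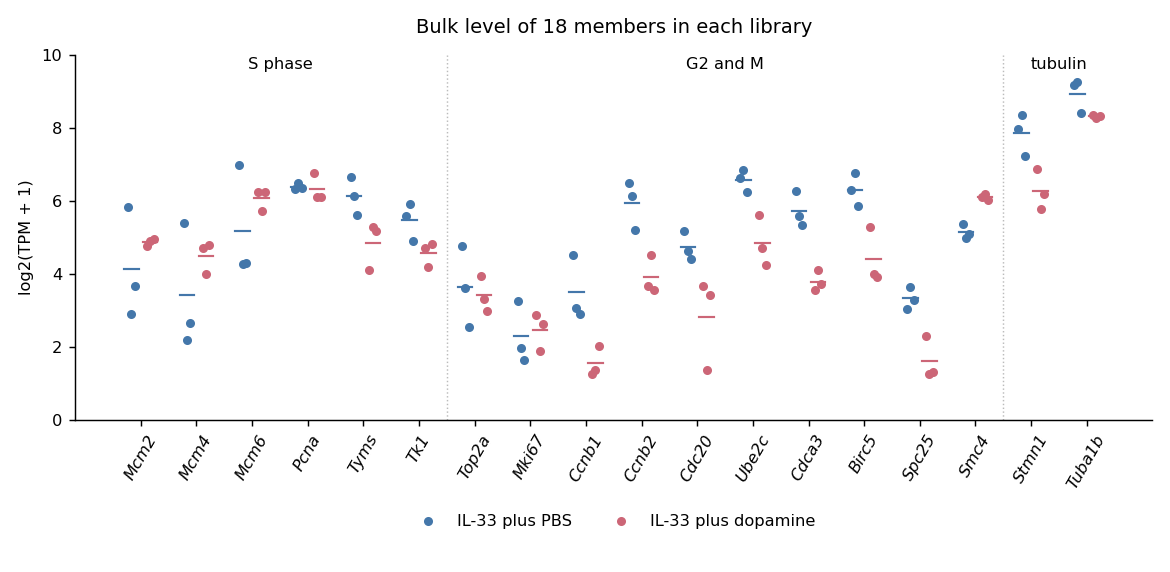
Bulk level of 18 genes in each library, as log2(TPM + 1) on the vertical axis; each point is a library and each bar the mean of 3 libraries. For Ccnb2, Cdca3, Ube2c, Birc5 and Stmn1 all dopamine points lie under all PBS points, and for Mcm2, Mcm4 and Mcm6 PBS library 1 lies above the other PBS libraries.

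Other genes of the pathway were counted by list. Of 40 other S phase genes, none passed limma's test, the median relative change was -0.63, and 1 was higher without overlap (Cdt1, the licensing factor that loads the helicase, named after its values were seen). Of 45 tested other G2 and M genes, none passed, the median was -0.89, 7 were lower without overlap and 4 higher, beside 6.57% and 23.5% of all genes. Of 10 tested cell cycle inhibitors, none passed and 6 were higher without overlap, with a median relative change of 0.49, beside the same 23.5%. In single cells 0 of 10 inhibitors were free of overlap with dopamine. At an unadjusted p under 0.05, 9 of the other G2 and M genes were lower and 4 higher, and 3 of the inhibitors were higher, beside 4.62% lower and 19.5% higher of all genes.

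Transcript length went with these changes. Each gene was given the length of its longest coding transcript in GENCODE M21. The 11 genes lower without overlap had a median length of 1793 bases and the 35 overlapping genes 3381 bases. Across 47 genes the relative change and the log2 length had r = 0.432 and rho = 0.438, beside r = 0.378 and rho = 0.413 across 11034 tested genes, as a description over genes of the same 6 libraries. All tested genes of 1 to 2 kb had a median relative change of -0.45, and the 14 genes of the set in that class -1.79, with 7 lower without overlap. At 2 to 3 kb the medians were 0 and -1.52 (8 of the set), at 3 to 4 kb 0.27 and -0.62 (15), and above 4 kb 0.31 and -0.58 (10). In each of these classes the median of the set lay below that of all genes. Single genes lay above it, among them Prc1 at 0.75 (3 to 4 kb) and Smc4 at 0.47 (above 4 kb).

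By library, the 14 genes of up to 2 kb stood at 2.25, 3.04 and 1.95 (median log2 level over the library's own median) with PBS and at 0.76, 0.28 and -0.02 with dopamine, with no overlap. The 25 genes over 3 kb stood at 1.1, 0.15 and -0.45 against 0.24, -0.57 and -0.05, overlapping. All 3476 tested genes of up to 2 kb stood at 0.85, 1.61 and 1.26 against 0.62, 0.54 and 0.65. What length adds to the results on the single genes was not tested. In single cells the change with dopamine had r = -0.17 and rho = -0.01 with length over 36 genes.

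**Figure D2:**
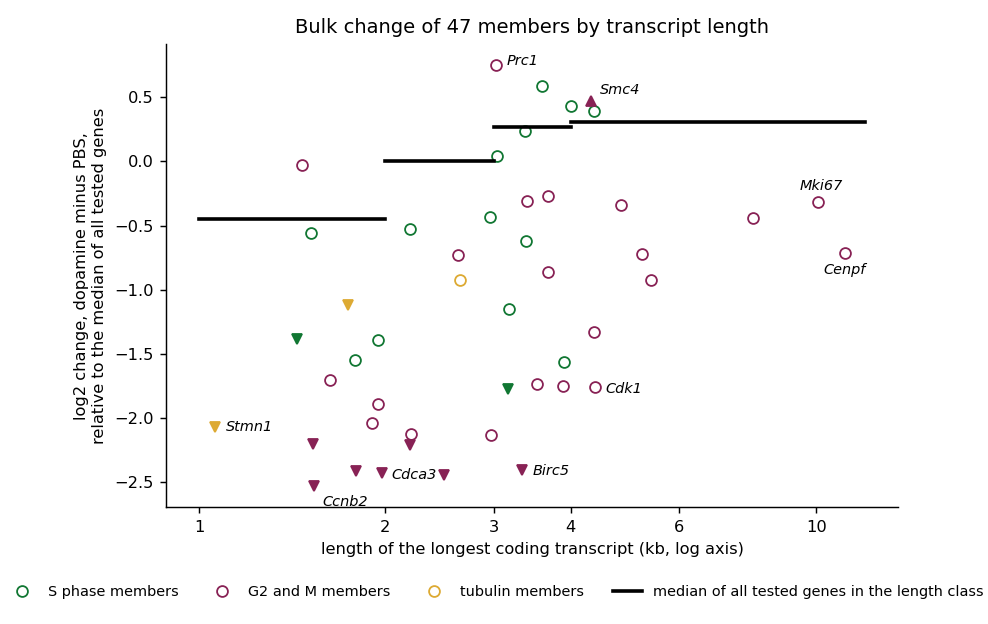
Bulk log2 change with dopamine minus the all-gene median (vertical axis) against the length of the longest coding transcript in kb (log axis) for the 47 tested genes. Open circles are genes whose groups overlap, filled triangles genes lower or higher without overlap, and black bars the median of all tested genes in each length class; the 11 filled triangles that point down are at most 3334 bases long.

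In the single-cell pool, counts were summed over the cells of each hashtag and levels are CPM. This library reads transcripts from their 3′ end. Filtering on low counts kept 36 of the 48 genes for the comparison of dopamine with IL-33: all 15 S phase genes, 18 of 30 G2 and M genes and the 3 tubulin genes. The 12 left out, among them Ccnb1, Cdk1, Plk1 and Hmmr, had 11 to 70 UMIs in the whole pool. A gene that passed through a high group alone was bound to differ, so the counts over the genes kept describe them and do not support a difference.

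With dopamine, none of the 36 genes passed edgeR's quasi-likelihood test (3 of 10559 genes did, or 0.0284%, all lower). At an unadjusted p under 0.05, 8 were lower and 2 higher, beside 4.66% and 4.81% of all genes. DESeq2 gave 4 lower genes, Ccnb2, Cenpe, Cenpf and Ube2c, beside 0.246% of all genes. Groups did not overlap for 6 lower genes (Ccnb2, Cdca3, Cenpe, Cenpf, Stmn1 and Ube2c, beside 6.93% of all genes) and 2 higher genes (Lig1 and Mcm2, beside 7.81%). The median change was -0.36 for the G2 and M genes, of which 15 of 18 were below the median of all genes. In cells between the 10th and 90th percentile of UMIs it was -0.07, over 11 genes without Ccnb2, Cenpe, Ube2c and Cdca3. For the S phase genes the median change in all cells was 0.00. The 21 tested other G2 and M genes lay otherwise, with 6 below and 15 above the median of all genes and a median change of 0.05. The 26 tested other S phase genes had a median of 0.08, with 9 below and 17 above.

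Ccnb2 had 5.83, 6.52 and 6.51 CPM in IL-33 hashtags 3 to 5 and 1.2, 3.64 and 1.70 CPM in dopamine hashtags 6 to 8 (-1.51 ± 0.32, edgeR adjusted p = 0.188). It had 0 and 0.596 CPM in the PBS hashtags, from 0 and 2 UMIs. So the IL-33 hashtags stood above both other groups without overlap. Cenpf had 8.20, 8.41 and 7.44 CPM with IL-33, 3.15, 3.06 and 0.463 with dopamine (-1.83 ± 0.36) and 0.716 and 2.08 with PBS. Cenpe, the kinetochore motor, had 6.26, 3.95 and 7.56 CPM, then 1.05, 3.06 and 1.08 (-1.78 ± 0.38) and 0 and 1.19. Both showed the same order of groups.

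Ube2c had 3.99, 6.86 and 10.9 CPM with IL-33, 3.60, 1.89 and 1.08 with dopamine (-1.72 ± 0.42) and 0.716 and 1.49 with PBS. The lowest IL-33 hashtag was close to the highest dopamine hashtag. Cdca3 had 2.05, 2.40 and 2.44 CPM with IL-33 and 1.2, 0.873 and 0 with dopamine (-1.69 ± 0.54), but PBS hashtags at 3.58 and 0.893 spanned both, from 5 and 3 UMIs. Stmn1 had 22.8, 25.9 and 22.9 CPM with IL-33, 16.7, 15.1 and 14.5 with dopamine (-0.62 ± 0.11, edgeR adjusted p = 0.127) and 10.7 and 12.8 with PBS. Its 3 groups did not overlap, in the order PBS, dopamine, IL-33.

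Mki67 and Top2a varied within the groups. Mki67 had 12.5, 10.3 and 8.49 CPM with IL-33, 4.65, 9.46 and 2.62 with dopamine (-0.90 ± 0.32, edgeR adjusted p = 0.447) and 4.29 and 2.08 with PBS. Top2a had 21.6, 11.5 and 12.7 CPM with IL-33, 11.4, 21.7 and 6.02 with dopamine and 5.72 and 6.55 with PBS. Dopamine hashtag 7 lay inside the IL-33 range for both genes, and hashtag 8 was the lowest of its group. Without hashtag 7, Ccnb2 and Cenpe passed edgeR's test, beside 0.149% of all genes. The median of the G2 and M genes was then -0.74 in place of -0.36.

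S phase genes lay closer together. Mcm2 had 9.82, 9.27 and 9.07 CPM with IL-33, 10.5, 12.8 and 11.9 with dopamine and 10.7 and 10.1 with PBS, a small difference without overlap between the first 2 groups (0.32 ± 0.14, edgeR adjusted p = 0.521). Lig1, the ligase that seals the lagging strand, had 22.1, 28.1 and 25.5 CPM, then 31.8, 30.3 and 42.3 (0.48 ± 0.15) and 37.2 and 26.8. Pcna had 46.5, 39.1 and 45.8 CPM, then 44.9, 45.1 and 51.2, and 65.1 and 42.6. Of these only Mcm2 and Lig1 did not overlap between IL-33 and dopamine.

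The other helicase subunits overlapped throughout. Mcm6 had 28.6, 19.6 and 20.7 CPM with IL-33 and 22.8, 23.7 and 20.2 with dopamine, and Mcm3 17.3, 13.9 and 14.4 against 16.8, 17.7 and 13.6. Mcm4 had 16.9, 15.6 and 15.2 CPM against 16.1, 16.1 and 13.9, Mcm5 10.7, 8.92 and 11.4 against 9.31, 10 and 11.9, and Mcm7 13.1, 15.1 and 17.4 against 16.1, 13.8 and 15.1. The summed level of the 15 S phase genes was 264, 245 and 256 CPM with IL-33, 265, 269 and 267 with dopamine and 301 and 240 with PBS. Every dopamine hashtag was above every IL-33 hashtag, by a narrow gap, and the PBS hashtags lay on either side of both.

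**Figure D3:**
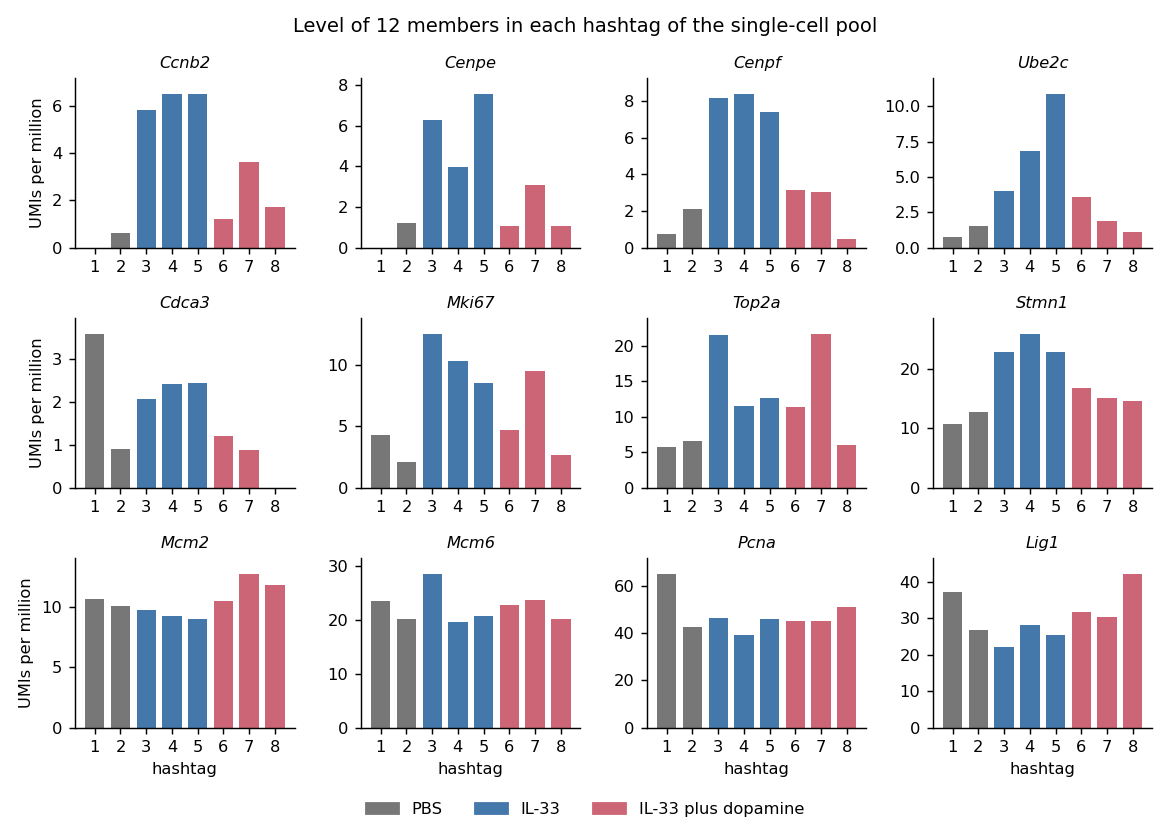
Level of 12 genes in each hashtag of the pool, in CPM on a vertical axis from 0; bars are hashtags and colours the treatments. The IL-33 bars stand above all others for Ccnb2, Cenpe, Cenpf, Ube2c and Stmn1, and no such step shows for Mcm6 or Pcna.

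IL-33 against PBS gave 4 of 37 tested genes, all higher with IL-33, by edgeR's test (0.352% of 10506 genes were higher and 0.704% passed in either direction). These were Ccnb2 (3.80 ± 0.59, adjusted p = 0.00842), Cenpf (2.21 ± 0.40, adjusted p = 0.0184), Stmn1 (0.93 ± 0.18, adjusted p = 0.0350) and Mki67 (1.88 ± 0.38, adjusted p = 0.0373). Ccnb2, Cenpf and Mki67 had 0 and 2, 1 and 7, and 6 and 7 UMIs in the PBS hashtags and passed the filter through the IL-33 hashtags, so the count of 4 describes the genes kept and supports no difference by itself. Ccnb2 rests on 148 UMIs against 2, a ratio of 14.9 with a 95% counting interval of 4.04 to 124. The IL-33 hashtags are those of the dopamine comparison, so the comparisons are not independent. No gene of the set passed in a fit over all 8 hashtags, in cells between the 10th and 90th percentile of UMIs, or without PBS hashtag 1 or PBS hashtag 2, and DESeq2 gave no adjusted p for 31 of the 37, these 4 included.

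At an unadjusted p under 0.05, 9 genes were higher, beside 6.56% of all genes, and 3 lower, beside 6.87%. Groups did not overlap for 12 higher genes, beside 20.9% of all genes, and for 5 lower ones, beside 13.6%. Besides the 4 above, Cenpe was higher (2.80 ± 0.63, edgeR adjusted p = 0.0567), as were Ube2c (2.47 ± 0.67), Top2a (1.27 ± 0.37), Cdca8 (1.06 ± 0.46), Kif11 (1.87 ± 0.84), Cenpa, Mcm3 and Smc4. Lower were Tuba1b, at 90.2 and 93.5 CPM with PBS and 45.7, 74 and 60 CPM with IL-33 (-0.67 ± 0.16, edgeR adjusted p = 0.0755), Prc1 and Kif23, which both bundle the midzone of the spindle, Smc2 and Mcm2. Prc1 had 7.16 and 8.04 CPM with PBS and 5.07, 4.12 and 3.95 with IL-33, and Kif23 30.1 and 20.5 against 16.7, 18.7 and 15.2. Within cluster 1 both lay the other way (0.83 and 0.19). The 5 tested kinetochore genes were all above the median of all genes, and Spc25 was too low to be tested. Cenpe, Ube2c and Kif11 had 0 and 4, 1 and 5, and 1 and 1 UMIs in the PBS hashtags. Like Cenpf, they passed the filter through the IL-33 hashtags. So this count, the list of higher genes and the G2 and M median describe the genes kept and support no difference. The median change was 0.71 for 19 tested G2 and M genes, 0.155 without PBS hashtag 2, 1.27 without PBS hashtag 1 and 0.33 without IL-33 hashtag 5, and 0.03 for the S phase genes.

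Of all tested genes of both data sets, 28.7% of 9533 lay below the median of all genes with dopamine in bulk and in single cells. Of the G2 and M genes 14 of 18 did, and of the S phase genes 7 of 15. The 18 are those of 30 that the single-cell filter kept, some through the IL-33 hashtags alone. So the 14 of 18 describes the genes kept and does not support a difference. The changes correlated with r = 0.463 and rho = 0.460 over 36 genes of the set, as a description, and with r = 0.173 and rho = 0.187 over the 9533. Ccnb2, Cdca3, Stmn1 and Ube2c were lower without overlap in both. Of the other 7 genes lower without overlap in bulk, Birc5, Tyms, Cdc20, Tk1 and Tuba1b overlapped in single cells, with changes of -0.57, -0.25, -0.35, -0.17 and 0.11, and Ccnb1 and Spc25 were too low to be tested there. Birc5 had 2.59, 2.23 and 4.19 CPM with IL-33 and 1.80, 2.47 and 1.85 with dopamine. The data sets also differ in sex, chemistry and gene coverage, which cannot be told apart.

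The share of cells with an Mki67 or Top2a UMI was 3.86% and 3.61% in the PBS hashtags, 13.8%, 8.42% and 8.58% in the IL-33 hashtags and 7.03%, 11.9% and 3.32% in the dopamine hashtags. The means were 3.73% ± 0.176 (SD, n = 2), 10.3% ± 3.06 (n = 3) and 7.43% ± 4.33 (n = 3). Dopamine was 2.84 points under IL-33 on average (-2.84 points, exact two-sided permutation p = 0.4, the smallest possible being 0.1), with overlapping hashtags. IL-33 was 6.53 points above PBS without overlap (exact two-sided permutation p = 0.2, the smallest that 3 against 2 hashtags allow). Exact 95% binomial intervals, which cover counting error only, ran from 12.1% to 15.7% in hashtag 3 and from 2.47% to 4.37% in hashtag 8. With the UMI as the unit, a cell is counted here whether or not it divides.

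Depth enters this share, since cells with such a UMI had a median of 7045 UMIs and the others 4714. With each cell thinned to 2000 UMIs, leaving out 4 shallower cells, the shares were 1.67% and 1.49% with PBS, 4.69%, 3.09% and 3.09% with IL-33 and 2.62%, 4.49% and 1.63% with dopamine. The order of hashtags 3 and 7 at the top and 1, 2 and 8 at the bottom remained. The table holds no cell type known to lack these genes, so the share that free RNA gives was not measured. The lowest share among the authors' clusters was 3.45%, in cluster 0.

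**Figure D4:**
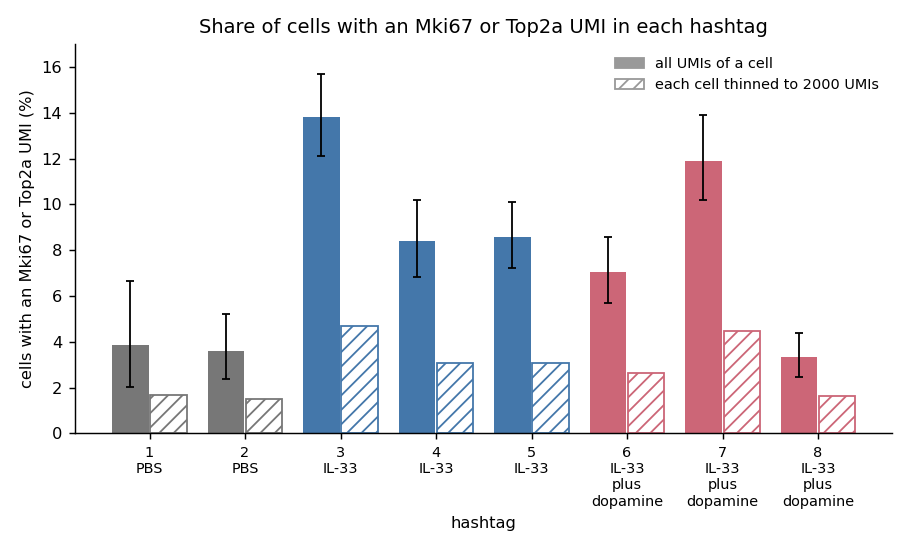
Share of cells with an Mki67 or Top2a UMI in each hashtag (percent); filled bars use all UMIs, with exact 95% binomial intervals, and hatched bars each cell thinned to 2000 UMIs. Hashtags 3 and 7, of different treatments, are the highest, at 13.8% and 11.9%, and hashtag 8 is the lowest at 3.32%.

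For 25 of the 30 G2 and M genes under 6% of cells had a UMI, a limit set after seeing the data; the other 5 were Cenpa, Kif23, Smc2, Smc4 and Hmgb2, a chromatin protein seen in 87% of cells. Summed over the 25, the level was 46.5 and 37.2 CPM with PBS, 93.6, 77.7 and 85.9 with IL-33 and 50.1, 73.5 and 32.6 with dopamine. All IL-33 hashtags were above all dopamine hashtags, and dopamine hashtag 8 was below both PBS hashtags. The same 25 genes in bulk summed to 658, 551 and 340 TPM with PBS and 249, 131 and 189 TPM with dopamine, without overlap, and the other 5 to 524, 500 and 385 TPM against 573, 476 and 417 TPM, overlapping.

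In the pool 73 of 9076 cells held at least 5 UMIs of these 25 genes, and they had 28.7% of all such UMIs. The 8330 cells with no Mki67 or Top2a UMI held 43.9% of them. By hashtag they were 0 of 311 and 0 of 748 cells with PBS, which allow shares of up to 0.965% and 0.401%, then 22, 12 and 24 cells with IL-33 (1.48%, 1.1% and 1.58%) and 3, 11 and 1 with dopamine (0.240%, 0.919% and 0.0678%). At this limit the shares of IL-33 and dopamine did not overlap. At a limit of 3 such UMIs they did, with 4.18%, 2.01% and 3.83% for IL-33 and 1.04%, 3.09% and 0.203% for dopamine. At a limit of 10 they did not, with 0.471% to 0.641% against 0% to 0.334%. The limit of 5 was set after seeing the data, so no test is given; 36 cells had 4 such UMIs and 10 had 5, so the class is a range and not a cell type. Without the 73 cells the summed level was 46.5 and 37.2 CPM with PBS, 60, 47.8 and 55.7 with IL-33 and 45.7, 55.5 and 31.8 with dopamine, where IL-33 and dopamine overlapped. The cells were picked by these same UMIs and most came from IL-33 hashtags. Taking them out was therefore bound to lower the IL-33 levels most, so this overlap is only a description.

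These 73 cells were deep, with a median of 10899 UMIs, and 58 of them were in cluster 5 of the authors' clustering, 49 with IL-33 and 9 with dopamine. Cluster 5 had the most UMIs per cell (median 8142) and the highest share of cells with an Mki67 or Top2a UMI, 27.9%, followed by cluster 1 with 10.6%; the other 4 had 3.45% to 7.10%. Within cluster 5 the share was 30.3%, 30.9% and 22.5% in the IL-33 hashtags and 25%, 34.7% and 3.85% in the dopamine hashtags, of which hashtag 7 gave 170 of the 280 cells and hashtag 8 gave 26. The cluster held 14.71% of all IL-33 cells and 7.14% of all dopamine cells. Clusters were made from the same cells' genes, so these are descriptions. Gata3 was seen in 97.3% of the 73 cells and the IL-33 receptor gene Il1rl1 in 93.2%, against 89.7% and 92.2% of all cells. Of T cell markers, Cd3e was seen in 2.74% against 1.53% of all cells, Trac in 11% against 3.78% and Cd3g in 30.1% against 19%. Cd79b, a B cell marker, was seen in 11% against 2.35%, and Lyz2 in 1.37% against 0.253%. The part of depth in these shares was not tested.

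The S phase genes were not chosen for rarity, so their values do not compare with those of the 25. At least 1 UMI of the 15 S phase genes was in 65.2% ± 4.15 of cells with PBS (SD, n = 2), 69.9% ± 3.44 with IL-33 (n = 3) and 68.7% ± 3.15 with dopamine (n = 3). Cells with an Mki67 or Top2a UMI had 274 CPM of S phase RNA and the others 259 CPM, while the other 23 rarely seen G2 and M genes stood at 144 and 33.8 CPM. In clusters 0 to 5 the S phase level ran from 242 to 293 CPM, and cluster 5 had 271 CPM. The 73 cells had 314 CPM of S phase RNA, from 1.95% of all S phase UMIs.

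By gene, after thinning to 2000 UMIs, Ccnb2 was in 2.03% of cells with an Mki67 or Top2a UMI and in 0.286% of the others, Cenpf in 2.24% and 0.385%, and Ube2c in 2.14% and 0.404%. Hmmr, a spindle protein, was in 0.685% and 0.103%. Other G2 and M genes differed little: Aurka was in 0.112% and 0.108%, Kif23 in 3.71% and 3.52%, Smc2 in 5.2% and 4.64%, and Hmgb2 in 67.7% and 65.2%. Plk1, with 11 UMIs in the whole pool, lay the other way, at 0.0181% and 0.0598%. Among the S phase genes Mcm6 was in 4.51% and 4.16%, Mcm3 in 3.47% and 2.63%, Tk1 in 1.06% and 0.689%, and Dut in 10.9% and 9.61%. Pcna was in 8.04% and 8.63%, and Lig1 in 4.01% and 5.66%. Only Pcna, Lig1, Mcm4 and Rrm1 of the S phase genes were lower in the first group, Mcm4 and Rrm1 slightly. Of the tubulin genes Stmn1 went with the first group, at 5.08% and 2.73%. Tubb5 did not, at 27.2% and 29.3%, nor did Tuba1b, at 8.99% and 12.6%.

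**Figure D5:**
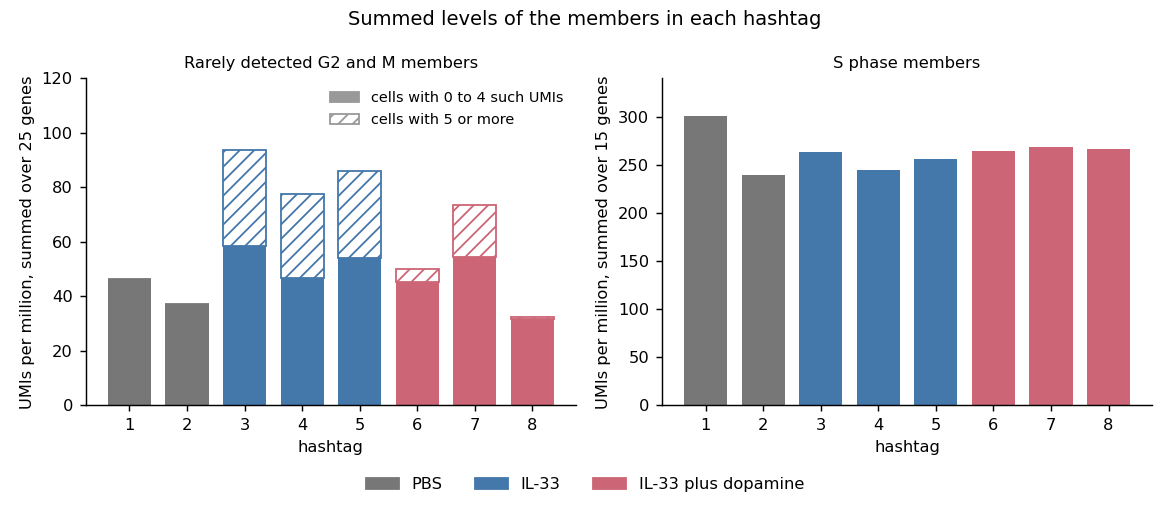
Summed level in each hashtag, in CPM of the whole hashtag, of the 25 rarely detected G2 and M genes (left) and of the 15 S phase genes (right). In the left panel the hatched part is held by cells with 5 or more UMIs of the 25 genes, of which the PBS hashtags have 0; the S phase bars lie between 240 and 301.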

How the data were processed

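The bulk values are TPM that the authors deposited, 1 column per library; the submitters' processing notes name cutadapt 2.10, STAR 2.7.5c, RSEM 1.3.3 and mm10, with no settings. The single-cell values are UMI counts that the authors deposited with a table of cells, which gives each cell's hashtag, treatment, cluster and percent of mitochondrial UMIs, per the file headers; the notes name Cell Ranger 6.1.1, Seurat 4.0.2 and mm10. For cell filters and doublets, the steps the authors took were not given in the sources used here. Doublets were not called. The cells had 1001 to 3591 genes and 1836 to 15989 UMIs.

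The genes and lists were chosen with earlier results of these data known. Bulk values were tested as log2(TPM + 1) with limma 3.58.1 (trend, R 4.3.3) over genes that reached 1 TPM in 3 or more libraries. UMI counts were summed by hashtag and tested with edgeR 4.0.16 (TMM, filterByExpr, quasi-likelihood), with DESeq2 1.42.0 as an alternative. All p-values are two-sided, adjusted by the Benjamini-Hochberg method over all genes tested, with a threshold of 0.05, and the scripts were tested on simulated data. Values per library are given by rule for genes past the threshold, for up to 12 per comparison whose groups do not overlap, and for Mki67, Top2a, Pcna and Mcm2 to Mcm7; other genes with values were picked after these were seen. Lengths come from GENCODE M21 and promoters from RefSeq. Thinned shares are expected values at 2000 UMIs.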

Additional observations from a re-analysis of the deposited data

How the results depend on the processing

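With the replicate number of the bulk labels as a block, 0 genes of the set passed, as without it; same-numbered libraries correlated at 0.0186, -0.071 and -0.00177 after removing group means, and 1 of 6 libraries correlated best with its own number, so they share only a number. In bulk, the count of genes passing was 1 with median-of-ratios scaling (0.0449% of all genes), 1 with quantile normalization (0.187%) and 11 with array weights (25%). It was 0 to 8 when each library was left out (0% to 14.3% of all genes). The median relative change of the G2 and M genes was -0.828 with a pseudocount of 5, -1.055 with array weights and -1.742 to -1.027 when each library was left out (-0.799 to -0.268 for the S phase genes).

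For dopamine in single cells, 4 genes passed with DESeq2 (0.246% of all genes) and 2 within cluster 5 (0.266%). The count was 0 to 2 when each hashtag was left out (0.00932% to 0.149% of all genes). The G2 and M median was -0.073 over 11 genes in cells of middle depth and -0.735 to -0.336 when each hashtag was left out. Within clusters 0 to 4 it was -0.121, 0.093, 0.002, -0.12 and -0.168, over 5, 8, 5, 6 and 5 genes. The genes tested differed between settings, so these medians are not over the same genes. The S phase median was 0.124, 0.061, 0.094 and 0.203 within clusters 0, 1, 2 and 4, and -0.025 to 0.06 when each hashtag was left out. Stmn1 was at 0.32 within cluster 2.

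For IL-33 against PBS, 1 gene passed with DESeq2, lower with IL-33 (1.13% of all genes passed), and 8 with no filter, 7 higher and 1 lower (2.14%). The count was 0 in cells of middle depth, 0 in 1 fit over all hashtags and 0 within each of the 6 clusters. With IL-33 hashtag 3, 4 or 5 left out, 3, 5 and 4 genes were higher and 0, 1 and 0 lower. Of all genes 0.4%, 1.19% and 0.892% passed in these 3 fits. The G2 and M median was 0.568 with DESeq2, 0.34 with no filter, 0.087 in cells of middle depth, 0.001, 0.298, 0.081, 0.037, 0.054 and 0.853 within clusters 0 to 5, and 0.155 to 1.274 when each hashtag was left out (0.591 without IL-33 hashtag 4, 0.331 without IL-33 hashtag 5). The S phase median was -0.122, -0.242 and -0.268 within clusters 3, 4 and 5, and -0.149 to 0.05 when each hashtag was left out. Prc1 was at 0.83 and Kif23 at 0.19 within cluster 1, and Top2a at -0.0 within cluster 3. The cause of these shifts was not tested. Low counts limit the mitotic genes: 12 of the 48 could not be tested for dopamine in single cells. Bulk depth is unknown.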
